A study of Homo sapiens with 12 samples.

Results

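Keratins are the intermediate filament proteins of epithelial cells, and their transcripts were examined here in SW480, a line established from a human colon adenocarcinoma. A set of 6 keratin genes was named (KRT8, KRT18, KRT19, KRT23, KRT80 and KRT10), and 5 of them were listed by symbol in both deposited tables, one of the knockdown with 13554 genes and one of the overexpression with 13583. KRT23 was listed in neither table and was dropped. The libraries fall into 4 groups of 3: shGPD1L, stably transfected cells in which GPD1L is knocked down; shNC, their control; OE, stably transfected cells overexpressing GPD1L; and Vector, the control of OE. GPD1L encodes a relative of the cytosolic glycerol-3-phosphate dehydrogenase, and the series asks what follows when its level is lowered or raised. Each perturbation was thus represented by 1 line set against 1 control line, so line differences and side effects of hairpin or construct cannot be told apart from what the GPD1L level does. Whether replicates were separate cultures is not stated, and the p-values therefore rest on a spread among samples that may be only technical.

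A keratin filament is built from equal amounts of an acidic type I chain and a basic type II chain, and neither chain forms filaments alone. KRT8 (type II) and KRT18 (type I) are the founding pair of simple, single-layered epithelia such as the lining of the gut. KRT19 is a small type I chain, also found in simple epithelia, that lacks most of the tail present in other keratins. KRT80 is a type II keratin found in many epithelia and in hair follicle, and KRT10 is the type I keratin typical of the suprabasal layers of the epidermis. The set therefore holds 3 simple-epithelial keratins and 2 that are not classed with them, and within the set the measured levels divided along that boundary. The boundary did not extend to other keratins, as the simple keratin gene KRT7, outside the set, lay below KRT80 and KRT10 in every library.

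Each gene is placed here by GENCODE release 29 on GRCh38. KRT8 (ENSG00000170421, chromosome 12, 52897187 to 52949954, minus strand) and KRT18 (ENSG00000111057, chromosome 12, 52948871 to 52952901, plus strand) are neighbours on opposite strands, and KRT80 (ENSG00000167767, chromosome 12, 52168996 to 52192000, minus strand) lies on the same chromosome. KRT19 (ENSG00000171345, chromosome 17, 41523617 to 41528308, minus strand) and KRT10 (ENSG00000186395, chromosome 17, 40818117 to 40822595, minus strand) lie in the type I cluster. All 5 are annotated as protein-coding.

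Keratin genes resemble each other in sequence, which bears on how reads are assigned. The longest run of identical coding bases between any 2 of the keratin genes examined was 65 bases, in KRT8 and KRT80. Between KRT18 and KRT19, the 2 abundant type I genes, the longest run was 17 bases, where both sequences encode the conserved start of the central rod. It is given with 20 bases on each side from the GENCODE transcripts to show how far the genes differ around it, capitals marking the identical run. Positions are counted from the first base of the start codon, 242 to 298 in both genes.
KRT18: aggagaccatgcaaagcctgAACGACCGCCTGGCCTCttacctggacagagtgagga
KRT19: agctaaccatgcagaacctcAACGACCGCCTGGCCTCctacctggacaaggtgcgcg

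Of the 50-base windows of a coding sequence, 45.5% in KRT8 and 57.9% in KRT18 also occurred, on either strand, in a transcript of another annotated gene, against 2.08% in KRT19, 1.22% in KRT80 and 0.528% in KRT10. Pseudogenes named after the gene held 45.5% of the KRT8 windows and 38.7% of the KRT18 windows; GENCODE names 50 and 67 of them, and neither table lists a keratin pseudogene. Of the KRT18 windows 26.5% matched another coding gene, KRT8 or PTPN14, which were not counted apart. The coding sequences compared for KRT8 and KRT18 shared no run longer than 15 bases. Exons annotated for KRT8 and KRT18 overlap over 525 bases on opposite strands, and the KRT8 matches may lie in that overlap. Strandedness is not stated, so reads in that overlap may not have been separated, and the FPKM of KRT8 and KRT18 are less certain in their absolute level than those of KRT19. The shared windows of KRT80 include ones that match KRT8, whose transcripts were listed at 1618 to 2590 FPKM against 3.34 to 8.75 FPKM for KRT80, and what part of the KRT80 values comes from KRT8 reads was not tested. KRT10 exons overlap those of the antisense gene TMEM99 over 56 bases.

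FPKM are fragment counts divided by transcript length and by the mapped total, so levels of different genes can be compared. KRT8, KRT18 and KRT19 ranked 17, 24 and 46 by mean FPKM among all genes of the knockdown table, and 20, 35 and 57 in the overexpression table. Together they made up between 99.1% and 99.4% of the FPKM of all 14 keratin genes listed in either table. KRT8 exceeded KRT18 and KRT18 exceeded KRT19 in each of the 12 libraries. KRT80 and KRT10 lay between 3.34 and 10.7 FPKM, against at least 685 FPKM for KRT19. The ranges of KRT10 lay above those of KRT80 in shGPD1L and in OE and overlapped with them in shNC and in Vector. These are bulk values, in which fewer cells expressing a gene and less RNA per cell cannot be told apart.

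The targeted gene followed the labels, at 1.55, 1.26 and 2.23 FPKM in shGPD1L against 8.68, 8.01 and 9.10 FPKM in shNC, and at 22.3, 22.8 and 22.1 FPKM in OE against 10.7, 10.2 and 11.1 FPKM in Vector. In the knockdown table shGPD1L replicate 3 stood apart on the first principal component, at -29.1 with the other 5 libraries between -0.319 and 12.1, and results whose call changes without it are given both ways. Listed FPKM summed to between 421714 and 444794 per library, and read numbers are unknown. The epithelial identity of the line was visible in its markers, as 9 of 10 intestinal epithelial genes were listed in both tables. These were EPCAM, CDH1, CDX1, CDX2, VIL1, LGALS4 and the 3 simple keratins, while KRT20 was listed for the overexpression only. The 3 simple keratins were listed by the choice of the set, so only the other markers bear on this identity. Of markers of other cells, 0 of 4 endothelial and 0 of 7 stratified keratinocyte genes were listed. The keratinocyte list does not include KRT10 or KRT13, keratins of stratified epithelia that were listed. It also leaves out KRT15, KRT16 and KRT17, likewise found in stratified epithelia and listed in both tables. Their group means ran from 0.703 FPKM (KRT16 in shGPD1L) to 1.79 FPKM (KRT15 in shNC). Of 7 fibroblast genes 2 were listed (COL1A1 and PDGFRB, summing to between 1.15 and 2.31 FPKM per library), and of 6 leukocyte genes 1 was listed (CD14, at no more than 2.69 FPKM).

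The first comparison asked whether keratin transcripts differ when GPD1L is lowered. None of the 5 genes passed the test, although 4 of them were lower in every shGPD1L library than in any shNC library. KRT80 had the largest difference, its mean in shGPD1L differing from that in shNC by -46.7%, and the means of KRT8, KRT18 and KRT19 differed by -16.0%, -16.9% and -15.8%. KRT10 showed no separation. Differences are of log2(FPKM + 1), which understates the change of low genes, and the test was limma over all genes averaging 1 FPKM or more, called at a Benjamini-Hochberg adjusted p under 0.05. All 5 genes passed that filter in both tables. In this comparison 72 of 12156 genes were called (0.592%). The libraries of the groups did not overlap in 24.7% of the genes tested, 9.54% with shGPD1L higher and 15.1% with shGPD1L lower. A two-sided exact permutation test had p = 0.1 for KRT8, KRT18, KRT19 and KRT80, the smallest value that 3 against 3 libraries can give.

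KRT8 was listed at 2215, 2093 and 1923 FPKM in shGPD1L against 2590, 2439 and 2390 FPKM in shNC. Its mean was 2077 ± 147 FPKM in shGPD1L and 2473 ± 104 FPKM in shNC (SD, n = 3 each), a log2 difference of -0.25 (SE 0.099, limma adjusted p = 0.267). The groups did not overlap, and shGPD1L replicate 3 was the lowest of the 6. Its partner KRT18 stood at 1261, 1373 and 1113 FPKM in shGPD1L against 1564, 1396 and 1549 FPKM in shNC, a log2 difference of -0.27 (SE 0.11, limma adjusted p = 0.277). Here the highest shGPD1L library came within 24 FPKM of the lowest shNC library, and replicate 3 was again the lowest.

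KRT19 was at 740, 719 and 877 FPKM in shGPD1L against 973, 917 and 883 FPKM in shNC, a log2 difference of -0.25 (SE 0.10, limma adjusted p = 0.291). In contrast to KRT8 and KRT18, replicate 3 was the highest of the shGPD1L libraries, just below the shNC range. Without replicate 3 the KRT19 difference was -0.34 and passed (limma adjusted p = 0.0452, with alternatives spanning 0.0452 to 0.585). Without replicate 3 KRT8 and KRT18 had differences of -0.20 and -0.19 and did not pass (limma adjusted p = 0.204 and 0.235).

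KRT80 was at 4.56, 5.55 and 3.34 FPKM in shGPD1L against 8.37, 8.75 and 8.09 FPKM in shNC. All shGPD1L libraries lay well below the shNC range, and replicate 3 was the lowest. The log2 difference was -0.80 (SE 0.15, 95% interval -1.14 to -0.46, limma adjusted p = 0.0684). Among the 12156 genes tested 33 had a more negative difference. Without replicate 3 it was -0.64 and passed (limma adjusted p = 0.0164, with alternatives spanning 0.0164 to 0.298). KRT10 was at 9.01, 10.7 and 6.83 FPKM in shGPD1L against 7.64, 8.36 and 9.06 FPKM in shNC, with the shNC values inside the shGPD1L range. Its difference was 0.06 (SE 0.15, limma adjusted p = 0.889), or -0.08 without shGPD1L replicate 2 and 0.21 without replicate 3.

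**Figure D1:**
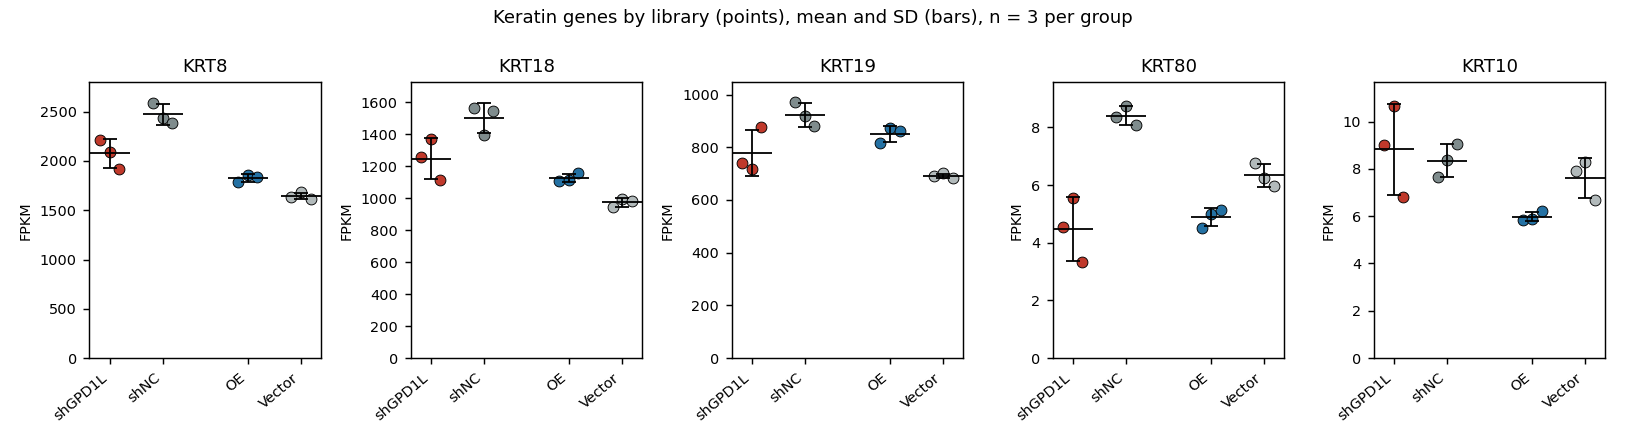
FPKM of the 5 keratin genes (y axes, linear from 0) in each library, by group; horizontal bars are means and error bars SDs over 3 libraries. KRT8, KRT18 and KRT19 lay lower in shGPD1L than in shNC and higher in OE than in Vector, while KRT80 lay lower in both shGPD1L and OE than in their controls.

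The second comparison asked the same of cells in which GPD1L is raised. All 5 genes passed the test, where 22.4% of the 12208 genes tested were called, 12.2% higher and 10.3% lower. KRT8, KRT18 and KRT19 rose by between 11% and 23% in mean FPKM, and KRT80 and KRT10 fell. In all 5 the OE and Vector libraries did not overlap, as in 41.8% of the genes tested (24.2% higher and 17.6% lower in OE).

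KRT8 was at 1786, 1859 and 1841 FPKM in OE against 1637, 1682 and 1618 FPKM in Vector. The OE libraries were all above the Vector libraries. Its mean was 1829 ± 37.9 FPKM in OE and 1646 ± 32.6 FPKM in Vector (SD, n = 3 each), a log2 difference of 0.15 (SE 0.037, limma adjusted p = 0.0225). KRT18 was at 1110, 1116 and 1156 FPKM in OE against 945, 999 and 982 FPKM in Vector, a log2 difference of 0.21 (SE 0.039, limma adjusted p = 0.00806). KRT19 was at 817, 874 and 863 FPKM in OE against 690, 701 and 685 FPKM in Vector, with a wide gap between the groups and a spread of only 7.80 FPKM (SD) in Vector. Its log2 difference of 0.30 (SE 0.039, limma adjusted p = 0.00217) was the largest of the 3 rises.

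The calls of KRT18 and KRT19 held in all 16 alternatives. That of KRT8 ended without OE replicate 2 or 3 or without Vector replicate 1, 2 or 3, with limma adjusted p-values of 0.0759, 0.0584, 0.0712, 0.0533 and 0.0633, and without the intensity trend (0.0673). The direction of all 5 differences was the same under each of the 3 scalings tried. With median-of-ratios scaling the KRT8 difference was 0.13, and with quantile normalization 0.28.

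KRT80 was at 4.53, 5.01 and 5.12 FPKM in OE against 6.77, 6.26 and 5.99 FPKM in Vector. Its mean was 4.89 ± 0.32 FPKM in OE and 6.34 ± 0.40 FPKM in Vector (SD, n = 3 each), a log2 difference of -0.32 (SE 0.074, limma adjusted p = 0.0191). The call ended without OE replicate 1 or without Vector replicate 1 or 2 (limma adjusted p = 0.055, 0.0636 and 0.0543). KRT10, at 5.85, 5.89 and 6.20 FPKM in OE against 7.90, 8.28 and 6.67 FPKM in Vector, fell by 0.30 on the log2 scale (SE 0.082, limma adjusted p = 0.0338). Vector replicate 3 came closest to the OE range, and the call ended without OE replicate 1, 2 or 3 or without Vector replicate 1 or 2 (limma adjusted p = 0.0857, 0.085, 0.059, 0.0968 and 0.109). TMEM99, antisense to KRT10, averaged 2.94 ± 0.13 FPKM in OE and 2.82 ± 0.23 FPKM in Vector (SD, n = 3 each).

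Whether the effects themselves differed was tested over all 12 libraries, as OE minus Vector less shGPD1L minus shNC. In this test 14.1% of 11208 genes were called, 9.14% with a positive and 5% with a negative difference of effects. That split depended on the scaling: 1024 positive and 560 negative calls became 1308 and 499 with equal library totals, 635 and 758 with median-of-ratios scaling and 667 and 669 with quantile normalization. The 3 simple keratins passed, each with a negative value in the knockdown and a positive one in the overexpression. The difference of effects was 0.55 for KRT19 (SE 0.11, limma adjusted p = 0.00841), 0.48 for KRT18 (SE 0.11, limma adjusted p = 0.0177) and 0.41 for KRT8 (SE 0.096, limma adjusted p = 0.018). These calls held without any 1 library and under each of the 3 scalings. They ended when the replicate number was added as a block (limma adjusted p = 0.0557, 0.0824 and 0.0701 for KRT19, KRT18 and KRT8). KRT80 was lower in both perturbed lines, and its difference of effects of 0.48 had an interval of 0.11 to 0.85 and did not pass (limma adjusted p = 0.0819); it passed without shGPD1L replicate 2, at 0.62. For KRT10 the value was -0.35 (interval -0.74 to 0.03, limma adjusted p = 0.208), and -0.51 without shGPD1L replicate 3, which passed.

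**Figure D2:**
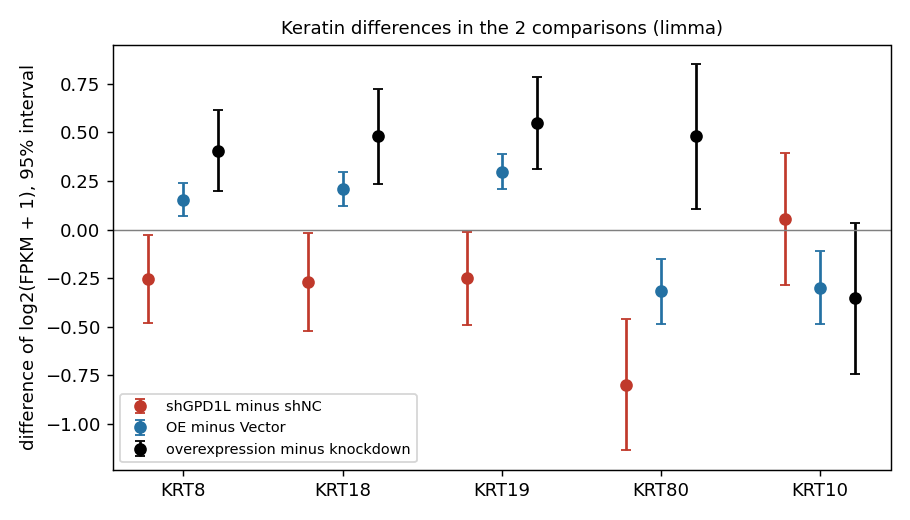
Differences of log2(FPKM + 1) with 95% intervals from limma (y axis) for the 5 keratin genes (x axis) in the knockdown, the overexpression and as the difference of these effects. For KRT8, KRT18 and KRT19 the 2 effects lay on opposite sides of 0; for KRT80 both lay below 0.

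For these 3 genes the control lines lay further apart than either line did from its control. The KRT8 means were 2077 FPKM in shGPD1L and 2473 in shNC, and 1829 in OE and 1646 in Vector. KRT18 had 1249 and 1503 FPKM in shGPD1L and shNC, and 1127 and 975 in OE and Vector. KRT19 had 779 and 924 FPKM in shGPD1L and shNC, and 851 and 692 in OE and Vector, and its OE and shGPD1L libraries overlapped. The OE means were thus below those of shNC in all 3 genes. No test was made across the tables, whose normalization may differ.

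Because type I and type II chains pair, their ratio was followed in each library. KRT8 to KRT18 in FPKM was 1.67 ± 0.13 in shGPD1L and 1.65 ± 0.10 in shNC, and 1.62 ± 0.04 in OE and 1.69 ± 0.04 in Vector (SD, n = 3 each). The groups overlapped in both comparisons. KRT19 to KRT18 was 0.755 ± 0.025 in OE and 0.710 ± 0.018 in Vector, and all OE libraries were above all Vector libraries (0.735, 0.783 and 0.747 against 0.730, 0.701 and 0.698). In shGPD1L it was 0.587, 0.523 and 0.788, against 0.622, 0.657 and 0.570 in shNC, and replicate 3 was the highest of the 6. KRT80 per 1000 FPKM of KRT8 was 2.06, 2.65 and 1.74 in shGPD1L against 3.23, 3.59 and 3.39 in shNC, and 2.53, 2.69 and 2.78 in OE against 4.14, 3.72 and 3.70 in Vector. Both perturbed lines were below their control in every library. Summed over type II and type I genes the ratio was 1.02 ± 0.07 in shGPD1L and 1.02 ± 0.04 in shNC, and 0.922 ± 0.011 in OE and 0.982 ± 0.015 in Vector. These ratios are given as descriptions.

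**Figure D3:**
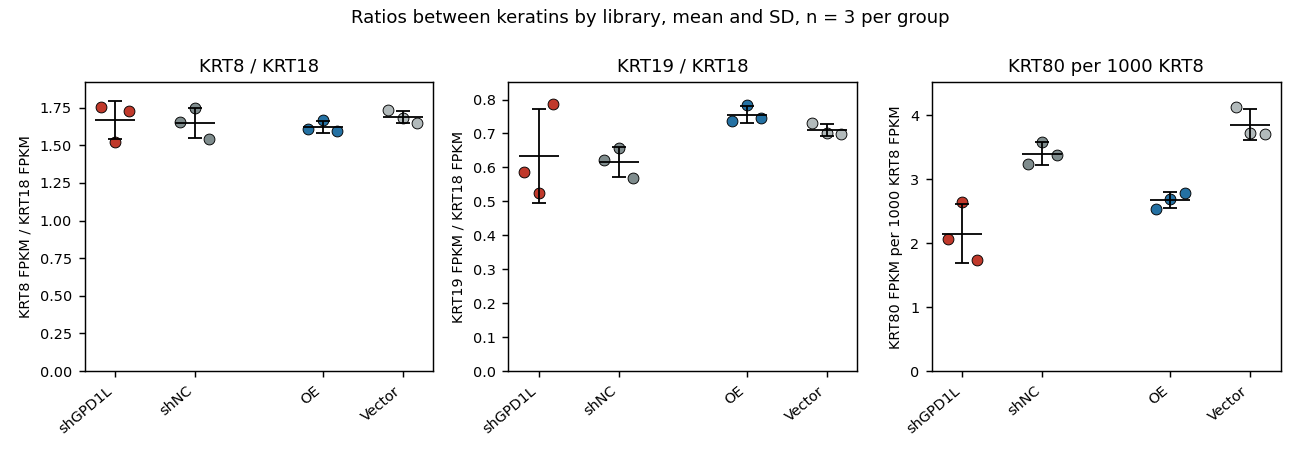
Ratios of FPKM between keratin genes (y axes, linear from 0) in each library, by group; horizontal bars are means and error bars SDs over 3 libraries. KRT8 to KRT18 overlapped between each line and its control, and KRT80 relative to KRT8 was lower in shGPD1L and in OE than in their controls.

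Over the 12 libraries, with each table centred on its own mean, KRT8 and KRT18 had a Pearson correlation of 0.89, KRT8 and KRT19 of 0.68, and KRT18 and KRT19 of 0.58. KRT10 and KRT19 moved in opposite senses (-0.76). Among 11208 genes the one most like KRT19 was CDKN1A (0.98), those most like KRT80 were SLC39A14 (0.98) and ABCB10 (0.96), and those most like KRT18 were CHUK (0.96) and WDR11 (0.96). SERPINB8 (0.95) and OSBPL3 (0.95) were closest to KRT8, and PGP (0.95) and MINPP1 (0.95) to KRT10. The points share the group differences and the scaling of each library, and the values describe them.

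Other genes that mark intestinal epithelium did not follow KRT8, KRT18 and KRT19 in OE. The adhesion genes EPCAM and CDH1, the intestinal transcription factors CDX1 and CDX2, the brush border gene VIL1 and the galectin gene LGALS4 all fell there while the 3 keratins rose. Of the 10 genes of this list, which includes KRT8, KRT18 and KRT19, 9 were tested, and 3 rose and 6 fell, where 12.2% of all genes tested rose and 10.3% fell. The median log2 difference was -0.28, against 0.02 for all genes tested. CDX1, for instance, was at 14.5, 14.0 and 14.9 FPKM in OE against 24.8, 25.9 and 22.1 FPKM in Vector, a difference of -0.70 (limma adjusted p = 0.000554). VIL1 had a difference of -0.52, CDX2 of -0.59, CDH1 of -0.31, LGALS4 of -0.28 and EPCAM of -0.21, and each of these 6 calls held in all 16 alternatives. In the knockdown 0 of the 9 passed limma, with 4 at an unadjusted p under 0.05 (of all 12156 genes tested 1980 were at such a p and 0.592% were called), and the median was -0.23 against -0.04 for all genes tested. The 4 were KRT8, KRT18, KRT19 and VIL1, and the list medians of both comparisons include the 3 keratins. CDX1 lay at 0.02 and CDX2 at -0.06 in the knockdown, and without shGPD1L replicate 3 VIL1 (-0.55) and LGALS4 (-0.40) passed, toward lower values. In the difference of effects CDX1 (-0.73) and CDX2 (-0.53) passed with the sign opposite to that of the keratins; the CDX2 call ended without shNC replicate 3, OE replicate 1 or Vector replicate 1 or 2 (limma adjusted p from 0.0558 to 0.0629).

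**Figure D4:**
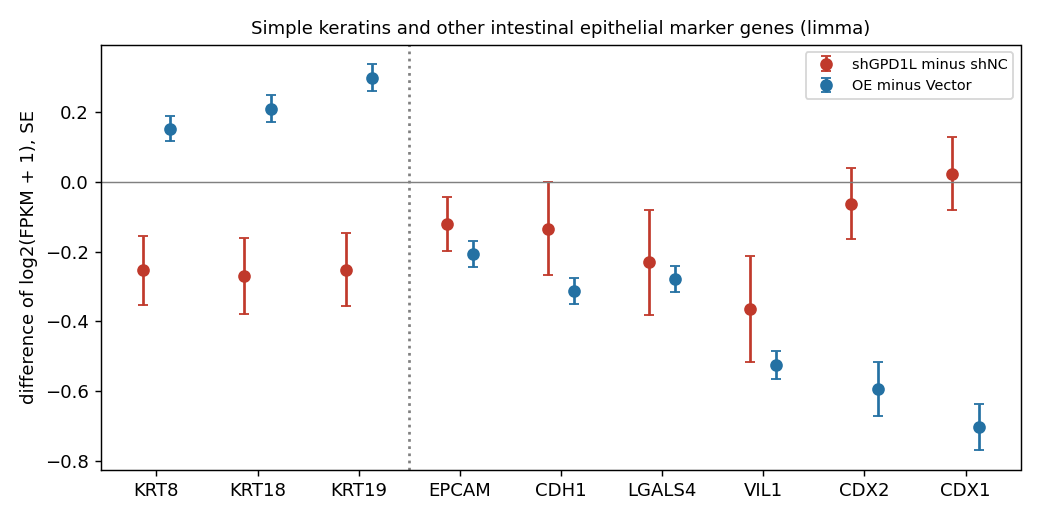
Differences of log2(FPKM + 1) with SEs from limma (y axis) for the 3 simple keratins, left of the dotted line, and 6 other intestinal epithelial marker genes, in both comparisons. In OE the keratins lay above 0 and the other 6 below it.

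Keratin filaments are anchored at desmosomes and cross-linked by plakins. Of 21 genes of desmosomes and filament linkers 16 were tested. In OE 4 of the 16 rose and 0 fell (median 0.15, against 0.02 for all genes tested), where 22.4% of all genes tested were called and 12.2% rose. In shGPD1L 0 rose and 1 fell (median 0.02, against -0.04), where 0.592% of all genes were called. PLEC, whose product plectin links keratin to hemidesmosomes and other filaments, was at 82.4, 82.9 and 90.1 FPKM in OE against 53.5, 51.6 and 51.2 FPKM in Vector. The groups were far apart, with a difference of 0.70 (SE 0.048, limma adjusted p = 0.000179). DSP, encoding the desmoplakin that ties keratin to the desmosome, rose by 0.22 in OE, and both calls held in all 16 alternatives. The desmosomal cadherin gene DSG2 rose by 0.19 there and the periplakin gene PPL by 0.27. The DSG2 call ended without Vector replicate 1 or 2 (limma adjusted p = 0.0548 and 0.0541), and that of PPL without OE replicate 2 or 3 or any 1 Vector library (0.0523 to 0.0621). The plakoglobin gene JUP had a difference of 0.15 (limma adjusted p = 0.117), and passed with equal library totals or without OE replicate 1.

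In the knockdown PERP, a tetraspan desmosomal protein gene, was at 40.4, 40.2 and 36.3 FPKM in shGPD1L against 57.2, 59.1 and 59.2 FPKM in shNC and fell by 0.58 (SE 0.077, limma adjusted p = 0.0337). The call ended without any 1 library other than shGPD1L replicate 3 (limma adjusted p from 0.0772 to 0.203). Without any 1 shNC library the knockdown call of GPD1L itself also ended (0.0522 to 0.0836), and 0 or 1 of all genes passed. The desmocollin gene DSC2 had a difference of -0.54 in the knockdown (limma adjusted p = 0.0787) and passed without shGPD1L replicate 3, at -0.50 (0.0475). PLEC, DSP and JUP differed by 0.14, -0.01 and 0.01 there, none of them called. In the difference of effects 4 of the 16 passed, all positive: PERP at 0.72, PLEC at 0.56, DSC2 at 0.53 and DSG2 at 0.36. Of all genes tested 14.1% passed there, 9.14% being positive calls. The DSC2 call ended without shNC replicate 1, OE replicate 2 or Vector replicate 2 or 3 (limma adjusted p from 0.0546 to 0.06).

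Of 15 genes of other intermediate filaments 8 were tested in the knockdown, of which 0 passed limma with 0 at an unadjusted p under 0.05, where 0.592% of all 12156 genes were called and 1980 were at such a p. In the overexpression 9 were tested, of which 1 rose and 2 fell, against 22.4% of all genes called. The rise was that of the nuclear lamin gene LMNA (0.25, limma adjusted p = 0.0186; lost without OE replicate 2 or Vector replicate 1 or 3, at 0.0598, 0.0514 and 0.0533). The muscle filament gene DES fell by 1.08, at 2.98, 2.54 and 2.98 FPKM in OE against 6.95, 8.16 and 6.31 FPKM in Vector. Its difference of effects was -0.82 (limma adjusted p = 0.0307; lost without shNC replicate 2 or 3, any 1 OE library or Vector replicate 1 or 2, at 0.0506 to 0.0805). The progenitor filament gene NES fell by 0.36 (limma adjusted p = 0.0364; lost without any 1 OE library or Vector replicate 1 or 2, at 0.0606 to 0.113, and with quantile normalization, at 0.0531). VIM, the mesenchymal filament gene, stood at 1.41, 1.95 and 9.66 FPKM in OE against 1.01, 1.39 and 1.31 FPKM in Vector, so that its difference of 0.92 (limma adjusted p = 0.19) rests on OE replicate 3; in the knockdown it was at 2.15, 3.89 and 1.37 FPKM in shGPD1L against 2.02, 1.21 and 1.36 FPKM in shNC.

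Of 18 regulators of epithelial and mesenchymal state 9 were tested in each comparison. In the knockdown 0 rose and 1 fell (median -0.03, against -0.04 for all genes tested, of which 0.592% were called), and in the overexpression 1 rose and 2 fell (median -0.09, against 0.02 for all genes, of which 22.4% were called). ELF3, an epithelial ETS factor gene, was at 1.38, 1.44 and 1.76 FPKM in shGPD1L against 3.57, 3.59 and 2.97 FPKM in shNC, and at 1.97, 2.56 and 2.05 FPKM in OE against 3.47, 4.15 and 2.75 FPKM in Vector. Like KRT80 it was lower in both perturbed lines, by 0.79 (limma adjusted p = 0.0374) and 0.47 (0.0322) on the log2 scale. The knockdown call ended without any 1 library other than shGPD1L replicate 3 (0.088 to 0.221) and with median-of-ratios or quantile scaling (0.051 and 0.0576), and the overexpression call without OE replicate 1 or 3 or Vector replicate 1 or 2 (0.08 to 0.0975). In OE the ETS factor gene EHF fell by 0.33 and the epithelial splicing regulator gene ESRP1 rose by 0.29. The EHF call ended without OE replicate 1 or 2 or Vector replicate 1 or 3 (0.0573 to 0.0686), and that of ESRP1 without OE replicate 1 or 3 or any 1 Vector library (0.0567 to 0.0738). SNAI1, a repressor of epithelial genes, had differences of 0.34 in shGPD1L and -0.29 in OE, neither called. The OE value (limma adjusted p = 0.0519) passed with median-of-ratios scaling, without the trend, with robust eBayes and without Vector replicate 3 (0.034 to 0.0497). The SNAI1 difference of effects of -0.63 passed (limma adjusted p = 0.0218). That call was lost without shNC replicate 3, OE replicate 2 or Vector replicate 1 or 2 (0.0529 to 0.0583).

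The other 9 listed keratin genes were low. KRT13, a type I keratin of stratified mucosa, was at 4.08, 4.63 and 12.9 FPKM in shGPD1L against 7.73, 7.04 and 5.86 FPKM in shNC. Replicate 3 was above and the other shGPD1L libraries below every shNC library, with a difference of -0.09 (limma adjusted p = 0.924), or -0.55 without replicate 3 (0.0461). In OE it was at 5.82, 4.73 and 4.94 FPKM against 7.50, 6.21 and 7.21 FPKM in Vector and fell by 0.37 (limma adjusted p = 0.0249; lost without OE replicate 2 or 3 or Vector replicate 1 or 3, at 0.0673 to 0.0778). The type II simple keratin gene KRT7 was at 0.604, 1.02 and 0.641 FPKM in shGPD1L against 1.33, 1.44 and 1.502 FPKM in shNC, and at 1.47, 1.53 and 1.98 FPKM in OE against 1.38, 1.31 and 1.22 FPKM in Vector. It was not called in either comparison (limma adjusted p = 0.159 and 0.194), and its difference of effects of 0.67 passed (limma adjusted p = 0.0165), on the side of KRT8, KRT18 and KRT19; with a pseudocount of 0.1 it was 1.18.

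Of the remaining keratins none was called in either comparison with all libraries and the settings given. The type I gene KRT15 had a difference of -0.43 in the knockdown (limma adjusted p = 0.159) and 0.07 in the overexpression (0.739), and KRT17, whose coding sequence resembles that of KRT16, of -0.14 (0.759) and -0.41 (0.0597). KRT17 passed in the overexpression without the filter (limma adjusted p = 0.0488), without the intensity trend (0.0465), without OE replicate 3 (0.0425) and without Vector replicate 3 (0.0477). KRT71 was tested in the knockdown, at -0.07 (limma adjusted p = 0.876), and the paralogs KRT81 and KRT86 in the overexpression, at -0.26 (0.103, or 0.0422 without the trend) and 0.04 (0.844). KRT20, a keratin of differentiated gut epithelium, was listed in the overexpression table below the filter, at 0.634, 0.370 and 0.480 FPKM in OE against 1.27, 1.23 and 1.32 FPKM in Vector. KRT16 was at most at 1.71 FPKM in any library.

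**Figure D5:**
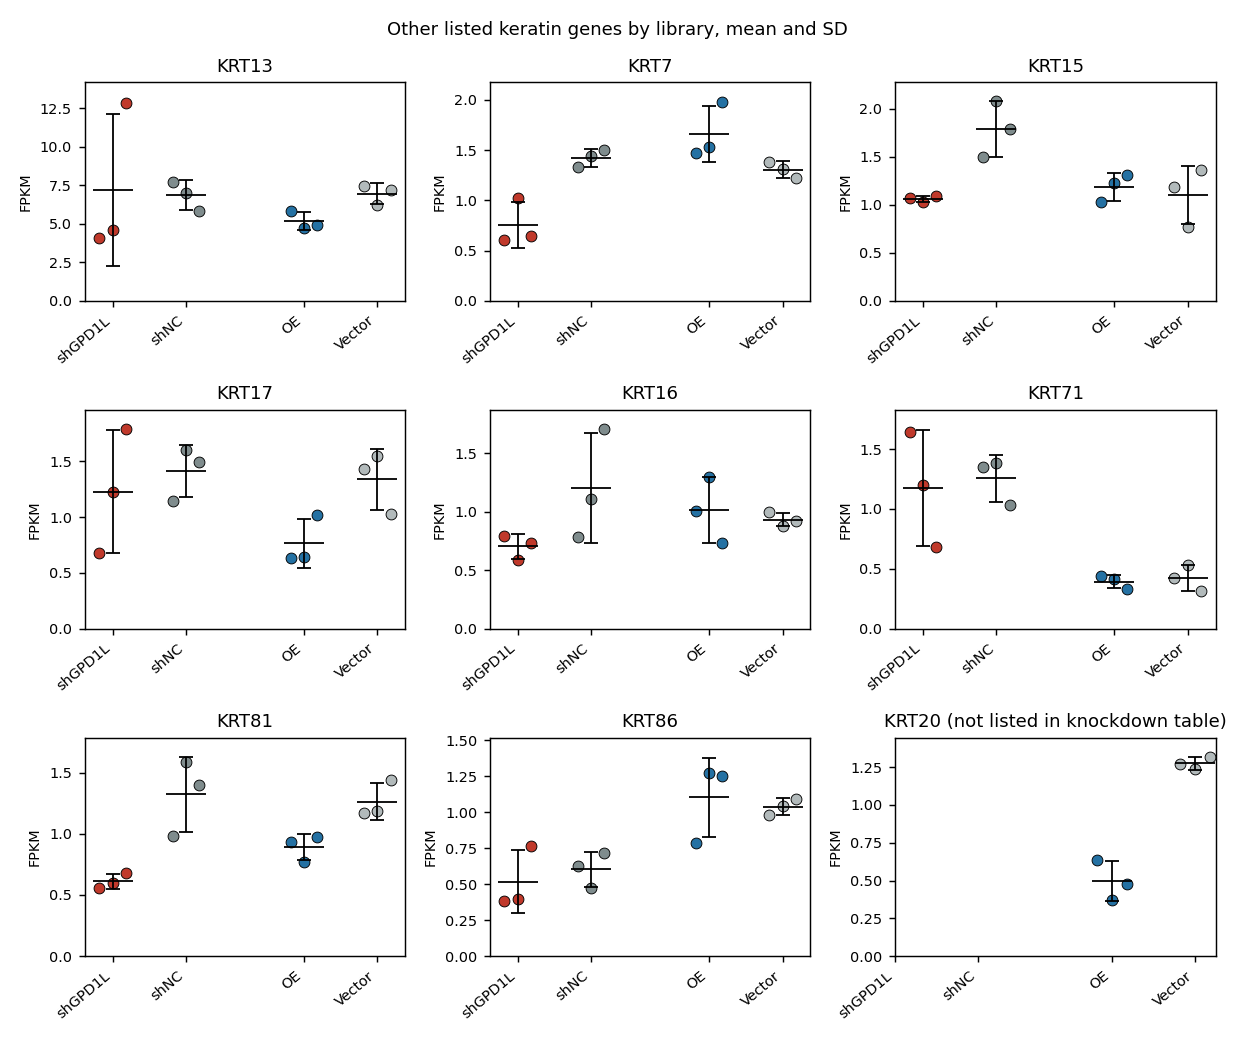
FPKM of the other 9 listed keratin genes (y axes, linear from 0, scaled per gene) in each library, by group; horizontal bars are means and error bars SDs over 3 libraries. KRT13 in shGPD1L replicate 3, at 12.9 FPKM, was the highest value, and KRT20 was listed in 1 of the 2 tables.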

How the data were processed

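Poly(A) RNA of 12 SW480 libraries was sequenced after Trizol extraction, bead capture, fragmentation and random priming, per the labels' protocols, which describe nothing that would preserve strand. The authors deposited 1 FPKM table per comparison. The submitters' processing notes name HISAT2, StringTie, DESeq2 and GRCh38, with roles not given in the sources used here, and likewise no annotation or filter. Read depth is unknown, and errors are therefore between-library SDs or SEs.

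Groups come from the sample titles, since the genotype field carries a running number inside the gene name (read as a slip). Within each table log2(FPKM + 1) was tested with limma 3.58.1 (R 4.3.3) and an intensity trend, over every gene averaging 1 FPKM or more, with Benjamini-Hochberg adjustment. The difference of effects used genes with Ensembl identifiers past that filter in both tables. Single genes also had an exact permutation test (scipy 1.17.1). The settings varied were the pseudocount (0.1 and 0.5), the filter (none, or 5 FPKM), 3 scalings, eBayes without trend or robust, a replicate block, and each library left out in turn. The named genes are the 6 keratins, other keratins that passed the filter, called members of the lists (up to 3 per direction), PLEC, DSP, JUP and VIM, and the 2 genes most correlated with each keratin; KRT16, KRT20, TMEM99, the uncalled values of called list genes and all 6 intestinal markers were added after their values were seen. 1 of the most correlated genes is not reported here. The members and lists were chosen with earlier results of these data known. The limma script was tested on simulated data. Of 50 genes changed by 0.25 log2 units it called 1 in the knockdown and 14 in the overexpression. For changes of 0.5 it called 21 and 37 of 50. Sequences and positions are from GENCODE release 29. Figures were drawn with matplotlib 3.10.9.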

Additional observations from a re-analysis of the deposited data

Results flagged for a closer look

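The effects of the knockdown and of the overexpression differed for 3 keratin genes by limma's test of the difference over 12 libraries. Of all 11208 genes tested there 14.1% were called, 9.14% with a positive difference of effects. The 3 keratin calls ended with a replicate block (limma adjusted p = 0.0557 for KRT19, 0.0824 for KRT18 and 0.0701 for KRT8). The difference of effects was 0.55 log2 units for KRT19, 0.48 for KRT18 and 0.41 for KRT8. Each gene was lower in shGPD1L than in shNC and higher in OE than in Vector, in 3 of 3 libraries of each perturbed line. Groups were likewise separate in 15.1% of all genes tested in the knockdown (shGPD1L lower) and in 24.2% in the overexpression (OE higher).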

How the results depend on the processing

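Of the 5 keratin genes, none was called in the knockdown, and leaving out 1 library gave 0 to 2 calls (2 without shGPD1L replicate 3). The 5 calls in the overexpression became 2 to 4 when 1 library was left out, and KRT18 and KRT19 were in all of them. The 3 calls in the difference of effects became 3 to 4 when 1 library was left out and 0 with a replicate block. Same-numbered libraries did not deviate together (correlations of -0.18 to 0.0222 across genes). No pairing by number was thus seen, but with 3 libraries per group these correlations cannot settle whether the numbers pair the samples. With the block 3 genes in all were called in the knockdown, 2021 in the overexpression and 483 in the difference of effects, against 72, 2740 and 1584 without it; KRT10 lost its call in the overexpression (adjusted p = 0.0633), and KRT19, KRT18 and KRT8 theirs in the difference of effects (0.0557, 0.0824 and 0.0701). Among the other genes named, the block also ended the calls of PERP (0.196) and ELF3 (0.1996) in the knockdown, of NES (0.0674) in the overexpression, and of KRT7 (0.0623), DSG2 (0.0631), SNAI1 (0.0646), CDX2 (0.0687), DES (0.0759), DSC2 (0.0791) and PLEC (0.0879) in the difference of effects, and of no other. Over all genes, quantile normalization gave 25 calls in the knockdown. Leaving out 1 library gave 0 to 609 calls in the knockdown, 1550 to 1980 in the overexpression and 790 to 2572 in the difference of effects. The split of calls in the overexpression depended on the scaling (1484 higher and 1256 lower, against 2441 and 977 with equal library totals, 1252 and 1465 with median-of-ratios scaling and 1271 and 1293 with quantile normalization); the 5 keratins kept their directions under all 3.

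Signs changed for values near 0, none of them called with all libraries. When 1 library was left out the knockdown difference ranged from -0.0766 to 0.21 for KRT10, -0.55 to 0.17 for KRT13 (0.0993 without shGPD1L replicate 2), -0.32 to 0.0489 for KRT17, -0.23 to 0.0996 for KRT71, -0.14 to 0.15 for JUP, -0.0598 to 0.10 for CDX1, -0.16 to 0.0173 for CDX2 and -0.15 to 0.0961 for DSP. The overexpression difference ranged from -0.0533 to 0.15 for KRT15, -0.0225 to 0.15 for KRT86 and -0.0794 to 0.0481 for DSC2, and the difference of effects from -0.54 to 0.18 for KRT13. With equal totals, median-of-ratios and quantile scaling DSP was at 0.00941, 0.0386 and 0.00285 in the knockdown, with quantile scaling KRT71 at 0.00750, and with equal totals DSC2 at 0.0274 in the overexpression. The causes were not tested.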
